A study of Rattus norvegicus with 4 samples.

Results

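Gremlin 1, encoded by Grem1, is a secreted protein that binds bone morphogenetic proteins (BMPs) and keeps them from their receptors. It was described here together with 9 other genes of the BMP pathway: the antagonist Nog, the ligands Bmp2, Bmp4 and Bmp7, the receptors Bmpr1a and Bmpr2, and the target genes Id1, Id2 and Id3. All 10 genes were found by their gene name on the arrays, among 26456 named genes and unnamed transcripts, with 11 probes printed in 20 spots. Grem1 was chosen by its measured values, since its ratio was below 0 on every array, and the other genes were chosen around it with results of the same comparison known. The IUGR-over-control values of all 10 genes are therefore a description and carry no test.

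Total RNA was taken at postnatal day 14 from pancreatic islets isolated from pups of Sprague Dawley dams. The IUGR group (intrauterine growth restriction) came from dams whose uterine arteries had been ligated on both sides at embryonic day 18, and the control group from dams given sham surgery. Each of 4 two-colour Agilent arrays carried 1 IUGR and 1 control sample, which makes 4 samples per group. IUGR RNA was in Cy5 on arrays 1 and 2 and in Cy3 on arrays 3 and 4. The sources used here do not give the number of animals or litters behind a sample, or the animals' sex, so the spread below is that between these samples and may be partly technical.

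BMPs bind a complex of type I receptors, such as BMPR1A, and type II receptors, such as BMPR2, which phosphorylates SMAD1, SMAD5 and SMAD9. With SMAD4 these enter the nucleus and raise transcription of the Id genes, whose products hold back basic helix-loop-helix transcription factors. Gremlin 1 and noggin act outside the cell, on BMP2, BMP4 and BMP7 among others. In the mouse pancreas, BMPR1A in beta cells has been tied to insulin secretion.

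The probe sequences show which stretch of each transcript was read. The first 2 are shown because Grem1 and Bmpr2 were the members with non-overlapping groups; they are given without capitals. In the Bmp2 and Bmp4 sequences, capitals mark bases that are the same where the probes are laid over each other without gaps.
Grem1 proximal: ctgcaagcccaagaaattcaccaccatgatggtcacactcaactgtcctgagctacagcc
Bmpr2: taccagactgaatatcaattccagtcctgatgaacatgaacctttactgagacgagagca
Bmp2: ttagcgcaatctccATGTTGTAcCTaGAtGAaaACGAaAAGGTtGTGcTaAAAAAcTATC
Bmp4: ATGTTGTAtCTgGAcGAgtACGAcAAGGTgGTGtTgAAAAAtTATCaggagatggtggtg

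The proximal Grem1 probe starts at position 567 of the transcript and lies at chr3:99600383-99600442 on the minus strand of rn4, the build the array files use. It has 1 reading frame without a stop codon. A second, distal Grem1 probe starts at position 3526 of the same transcript, and the files place it at chr3:99597201-99597242, an interval of 42 bases that covers only part of its 60 bases. It has no open frame (0 of 3), and its sequence is not shown. The Bmpr2 probe lies at chr9:58433667-58433726 on the plus strand and starts at position 2936. The Bmp2 probe (chr3:121381127-121381186, plus strand) and the Bmp4 probe (chr15:22283362-22283421, minus strand) cover the same stretch of these related ligands. They overlap over 46 bases, of which 36 (78.3%) are equal, and the longest shared run is 8 bases. Whether either transcript binds the other's probe was not tested.

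Brightness differed between the channels of each array, and array 1 stood apart. The median signal of the IUGR channel over that of the control channel was 1.68 on the log2 scale on array 1, against -1.58, -2.42 and -1.55 on arrays 2 to 4. Ratios on array 1 correlated with those on the others at r = 0.13, -0.23 and -0.30 across 20012 genes, whereas arrays 2 to 4 correlated with each other at 0.37 to 0.63. All 10 islet endocrine markers tested were well above background in all 8 channels, and so were all 8 acinar markers, so the RNA was not from endocrine cells alone. In bulk RNA, fewer cells of a type and less RNA per cell cannot be told apart. In limma's test across all 20012 genes and unnamed transcripts, 0% passed a Benjamini-Hochberg adjusted p of 0.05 (smallest adjusted p = 0.339), while 6.55% were lower and 7.14% higher in IUGR at an unadjusted p under 0.05. Their number, 2738, was 6214 without array 1, 936 without array 2, 464 without array 3 and 2149 without array 4.

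Grem1 was lower in IUGR islets than in control islets on each of the 4 arrays. At the distal probe, which had the higher mean intensity and stands for the gene, the normalized log2 levels were 7.13, 6.70, 7.50 and 7.17 in IUGR replicates 1 to 4, against 7.87, 8.30, 9.48 and 9.15 in control replicates 1 to 4. Every IUGR sample was below every control sample, and control replicates 3 and 4 were the highest. The log2 ratios on arrays 1 to 4 were -1.17, -1.17, -2.31 and -1.65, averaging -1.58 ± 0.54 (SD, n = 4 arrays), a 2.98-fold lower level. This was the 11th lowest mean of 20012, a rank that the choice of Grem1 makes a description.

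The proximal Grem1 probe read the same direction with smaller values. Its levels were 6.27, 6.21, 6.60 and 6.52 in IUGR replicates 1 to 4, against 6.71, 6.62, 7.35 and 7.51 in control replicates 1 to 4. The groups did not overlap here either, although the highest IUGR and the lowest control sample were close. The filter asked for at least 2 of 4 channels well above background in either group, and this probe passed through the control group alone. Its log2 ratios were -0.50, -0.35, -0.83 and -0.91, averaging -0.65 ± 0.27 (SD, n = 4 arrays). The levels of both probes correlated at r = 0.94 over the 8 samples. These share arrays, dyes and the group difference by which Grem1 was chosen, so the second probe is a description too.

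The IUGR signals of Grem1 lay near the background. The distal probe was well above background in 3 of 4 IUGR channels and in 4 of 4 control channels, and the proximal probe in 1 of 4 and 4 of 4. The mean signals of the distal probe were 47.2, 92.3, 110.4 and 55.7 intensity units in IUGR replicates 1 to 4, over local backgrounds of 35.5, 32, 21 and 21. In control replicates 1 to 4 they were 100.9, 308.5, 2053 and 1161, over 17, 16.5, 41 and 42. The offset of 50 added in background correction pulls such low signals together, and the mean was -2.34 with an offset of 0. It was -2.78 from Agilent's processed signals, which differ in background handling and normalization too, and -1.09 with outlying local backgrounds kept as measured.

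The lower level of Grem1 was seen in each dye. Among samples in Cy5, the distal probe had levels of 7.13 and 6.70 in IUGR, against 9.48 and 9.15 in control. Among samples in Cy3 they were 7.50 and 7.17 in IUGR, against 7.87 and 8.30 in control. The mean ratio was -1.17 on the arrays with IUGR in Cy5 and -1.98 on those with IUGR in Cy3.

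**Figure D1:**
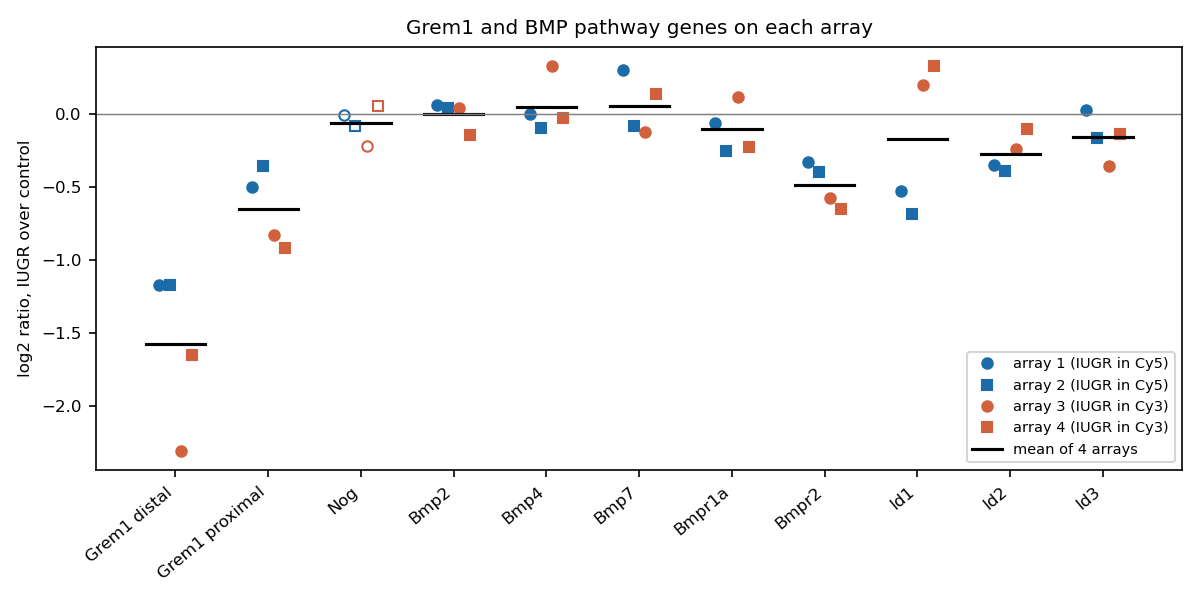
Log2 ratio of IUGR over control (vertical axis) for each member probe (horizontal axis) on the 4 arrays, with blue for IUGR in Cy5, orange for IUGR in Cy3 and a bar for the mean; open symbols mark Nog, which was not well above background. Both Grem1 probes, Bmpr2 and Id2 lie below 0 on every array, and Id1 lies below 0 in blue and above 0 in orange.

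Noggin, the other antagonist among the members, gave no usable signal. Its probe was not well above background in any of the 8 channels. It did not pass the filter on dim probes, which asked for at least 2 of the 4 channels of either group, and no fold is given. The other 9 members passed.

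The ligand genes did not differ between the groups in these data by more than their spread. Bmp2 had levels of 8.58, 8.70, 8.60 and 8.93 in IUGR replicates 1 to 4, against 8.64, 8.53, 8.89 and 8.74 in control replicates 1 to 4, and the log2 ratios averaged 0.0024 ± 0.096 (SD, n = 4 arrays). Bmp4 had levels of 9.18 to 9.81 in IUGR and 9.27 to 9.84 in control, and a mean ratio of 0.05 ± 0.19. Bmp7 had levels of 8.87 to 9.27 in IUGR and 8.73 to 9.05 in control, and a mean ratio of 0.06 ± 0.20. For all 3 the groups overlapped and the sign differed between arrays. With median centring in place of loess the 3 means were -0.18, -0.22 and -0.15, while the median of all genes was at -0.05.

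The receptors parted. Bmpr2, the type II receptor, had levels of 8.03, 8.04, 8.08 and 8.30 in IUGR replicates 1 to 4, against 8.37, 8.42, 8.88 and 8.73 in control replicates 1 to 4. Every IUGR sample was below every control sample, as it was for Grem1. Its log2 ratios were -0.33, -0.39, -0.58 and -0.65, averaging -0.49 ± 0.15 (SD, n = 4 arrays), a 1.40-fold lower level. In Cy5 its levels were 8.03 and 8.04 in IUGR, against 8.88 and 8.73 in control, and in Cy3 they were 8.08 and 8.30 in IUGR, against 8.37 and 8.42 in control. Bmpr2 was well above background in all 8 channels, which Grem1 was not.

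Bmpr1a, the type I receptor, had levels of 9.10, 9.28, 9.11 and 9.24 in IUGR replicates 1 to 4, against 9.34, 9.35, 9.12 and 9.34 in control replicates 1 to 4. The groups overlapped through control replicate 3 alone, which lay apart from the other control samples. Its mean ratio was -0.10 ± 0.17 (SD, n = 4 arrays), with 1 array above 0.

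**Figure D2:**
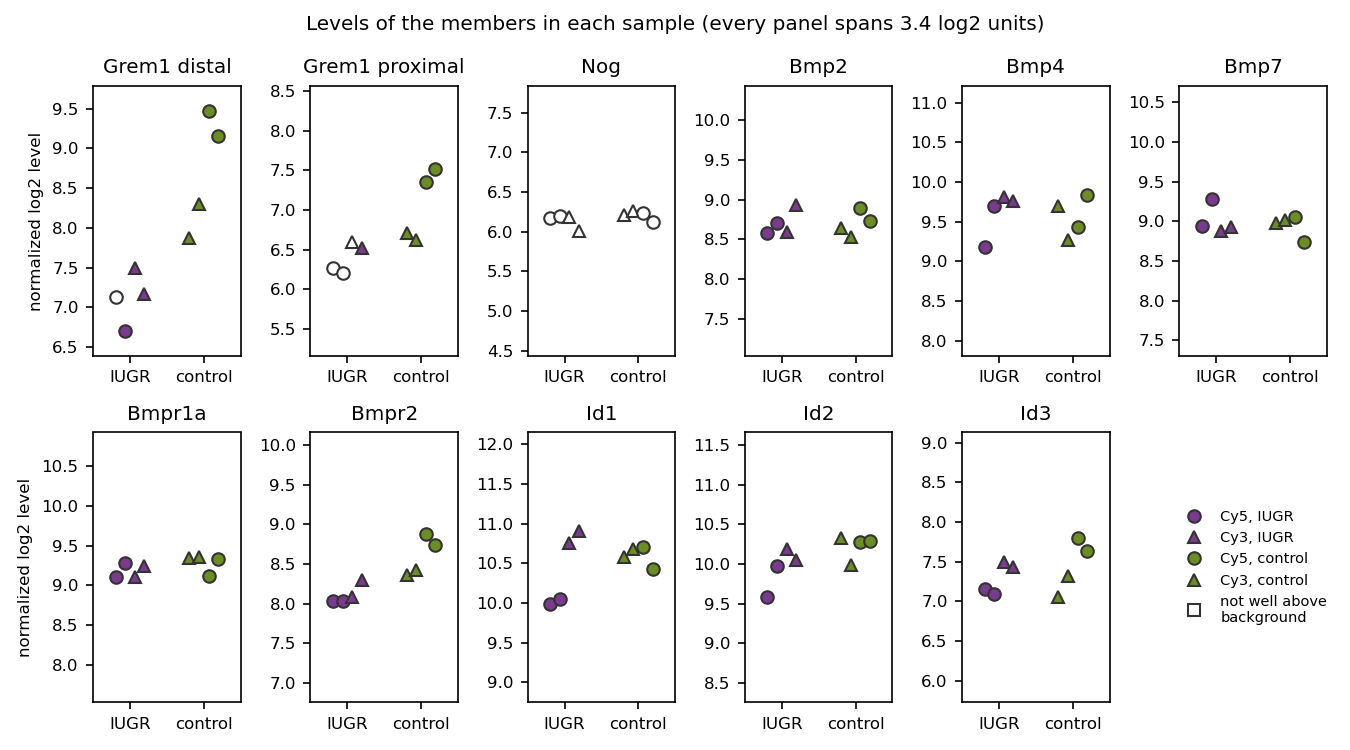
Normalized log2 level (vertical axis) of each member probe in the 4 IUGR and 4 control samples, with circles for Cy5, triangles for Cy3 and open symbols where the probe was not well above background; every panel spans the same range. IUGR samples lie below all control samples for both Grem1 probes and for Bmpr2, and the groups overlap elsewhere.

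The 3 Id genes, which BMP signalling is known to induce, all had means below 0, as had 9421 of the 20012 genes tested. Id2 alone of the 3 had 1 sign on all 4 arrays. Id2 was lower in IUGR on every array, with log2 ratios of -0.35, -0.39, -0.24 and -0.10 averaging -0.27 ± 0.13 (SD, n = 4 arrays). Its levels were 9.59, 9.98, 10.19 and 10.05 in IUGR replicates 1 to 4, against 10.32, 9.98, 10.28 and 10.29 in control replicates 1 to 4, and they overlapped because control replicate 2 was low. Id3 had ratios of 0.03, -0.16, -0.36 and -0.14, with a mean of -0.16 ± 0.16.

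Id1 changed sign with the dye. Its ratios were -0.53 and -0.68 on the arrays with IUGR in Cy5, and 0.20 and 0.33 on those with IUGR in Cy3. The probe was printed in 10 spots, whose SD within an array was 0.025 to 0.030, so the disagreement between arrays was far beyond the spread of spots. The mean over arrays was -0.17 ± 0.51 (SD, n = 4 arrays). Among samples in Cy5 the levels were 9.99 and 10.05 in IUGR, against 10.71 and 10.42 in control. Among samples in Cy3 they were 10.75 and 10.90 in IUGR, against 10.58 and 10.68 in control. Dye and sample pair change together between these arrays and cannot be told apart for a single gene.

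Across the 9 members that passed the filter, Grem1, Bmpr2 and Id2 were below 0 on all 4 arrays, as were 9.69% of all genes tested. No member was above 0 on all 4 arrays, against 11% of all genes. IUGR levels were all below control levels for Grem1 and Bmpr2, against 1.74% of all genes, and all above for no member, against 1.34%. Since the comparison that chose the members is the one counted here, nothing is read from these counts.

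Grem1 and Bmpr2 also had like patterns over single samples. Among 15108 named genes other than Grem1, the 6 whose levels over the 8 samples correlated most with those of the distal Grem1 probe were Hapln3 (r = 0.952), Bmpr2 (0.951), Pcdh7 (0.950), Pbx3 (0.950), Birc3 (0.949) and LOC304396 (0.949). Hapln3 encodes a link protein of hyaluronan matrices, Pcdh7 a protocadherin, Pbx3 a homeodomain transcription factor and Birc3 an inhibitor of apoptosis. Their mean log2 ratios were between -0.94 (Birc3) and -0.27 (Pbx3), and all 6 were below 0 on every array. The 8 values of a gene share arrays, dyes and the group difference by which Grem1 was chosen, so the correlations are a description. Among the other members, Id3 (r = 0.752) and Id2 (r = 0.598) ranked 1157th and 2751st.

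No gene of the wider BMP pathway passed the test, as none of all genes tested did. A list of 47 other ligands, antagonists, receptors, signalling proteins and targets was read beside the members, of which 45 were on the arrays and 39 were tested. None was called by limma after Benjamini-Hochberg adjustment (smallest adjusted p = 0.339). The share called over all 20012 genes tested was 0% too, so nothing is read from this about the pathway. At an unadjusted p under 0.05, 3 were lower and 4 higher in IUGR, close to the 6.55% and 7.14% of all genes tested. The median of the 39 mean log2 ratios was -0.03, beside 0.01 for all genes tested, with 21 below and 18 above 0. On all 4 arrays 4 of the 39 were lower and 1 was higher, against 9.69% and 11% of all genes tested, so the lower count was near the background.

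Among the other antagonists, Sostdc1, a secreted inhibitor of BMP and Wnt signals, had ratios of -0.45, -0.37, -0.21 and -0.13 (mean -0.29 ± 0.14, SD, n = 4 arrays, limma adjusted p = 0.339). Chrdl1, a chordin-like BMP binder, had a mean of -0.27 ± 0.10 (limma adjusted p = 0.339). In both Sostdc1 and Chrdl1 the IUGR and control levels overlapped, and of the 12 antagonists tested 5 had means below 0.

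Among the other ligands, receptors and signalling genes, few had 1 sign throughout. Of 7 ligands, Bmp15 alone did, with a mean of -0.14 ± 0.07 (limma adjusted p = 0.378). Of 8 receptors and co-receptors none did, and the endothelial co-receptor gene Eng had the highest mean, 0.76 ± 0.69, with -0.18 on array 1 and 0.69 to 1.42 on arrays 2 to 4 (limma adjusted p = 0.339). Of 7 signalling genes, Smad4, the shared partner of the receptor-activated SMADs, was above 0 on every array, with a mean of 0.29 ± 0.19 (limma adjusted p = 0.339).

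Of the 5 other targets, Id4 was the one below 0 on every array. Its ratios were -0.60, -1.54, -0.71 and -0.41, averaging -0.81 ± 0.50 (SD, n = 4 arrays, limma adjusted p = 0.339), the lowest of the 39 genes. Msx1, Msx2, Hey1 and Atoh8, transcription factor genes that respond to BMPs, had means from -0.18 to 0.09 and mixed signs. Eng and the targets of mixed sign were chosen for mention after their values were seen.

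**Figure D3:**
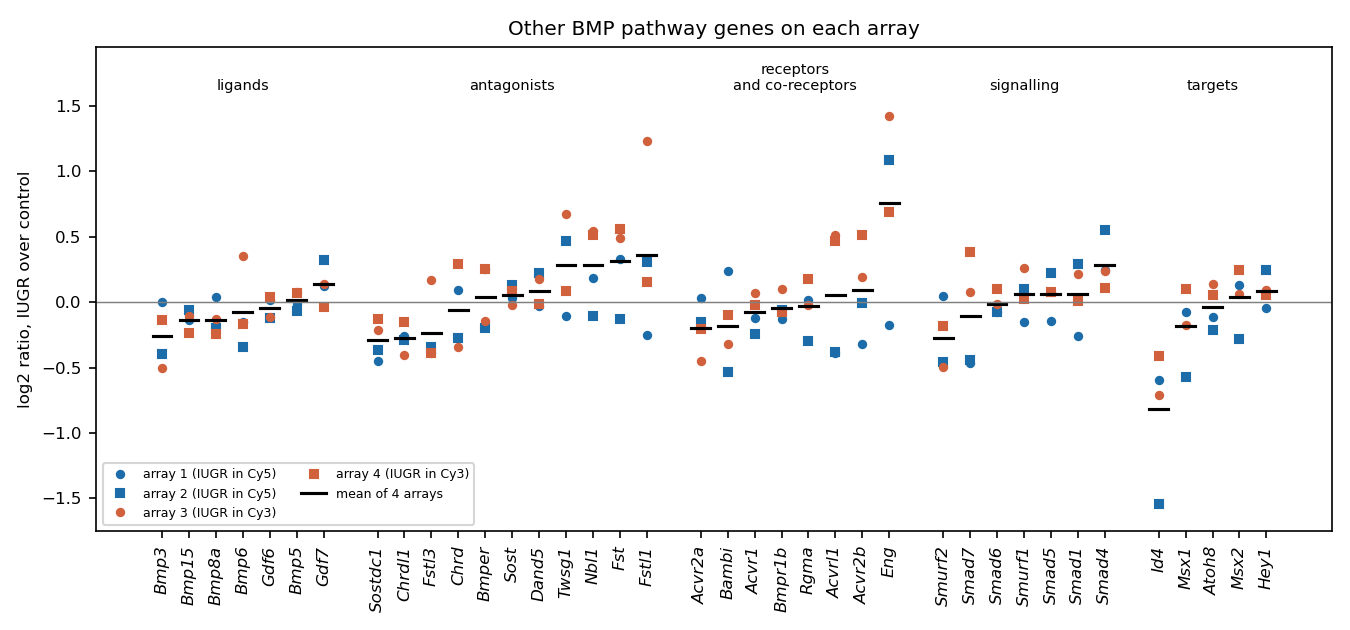
Log2 ratio of IUGR over control (vertical axis) for 38 of the 39 tested genes of the wider BMP list, grouped by role, on the 4 arrays (symbols) with the mean (bar). Sostdc1, Chrdl1, Bmp15 and Id4 lie below 0 and Smad4 above 0 on every array. None passed the adjusted test, and neither did any of all 20012 genes tested.

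Grem1 is known to be made by fibroblasts and smooth muscle cells of several tissues, so markers of the other cell types an islet preparation can hold were set beside it. Of 9 smooth muscle and pericyte markers tested, 8 had means below 0 and the median ratio was -0.72. Not all of them moved alike: Rgs5 had a mean of 0.42, and Cspg4 and Smtn had means of -0.15 and -0.06 with mixed signs. The mean log2 level of the 9 was 10.2 to 11.1 in the IUGR samples and 10.9 to 11.6 in the control samples. Lmod1, which encodes an actin-binding protein of smooth muscle, had a mean of -0.65 ± 0.12, and Acta2, smooth muscle actin, of -0.73 ± 0.46 (SD, n = 4 arrays, limma adjusted p = 0.339 each). By array the list's median was -1.22, -0.77, 0.11 and -0.59, and how it relates to the Grem1 ratios was not tested.

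The other lists with lower medians were those of T cells and ducts. Of 7 T cell markers tested, 6 had means below 0, with a median of -0.46 and list levels of 6.78 to 7.08 in IUGR, against 6.90 to 8.47 in control. Of the 7, only 2 were well above background in all 8 channels, so the list was partly near background. The T cell median by array was 0.08, -0.16, -1.25 and -0.47. The co-receptor gene Cd8a and the kinase gene Lck had means of -0.46 and -0.19 (limma adjusted p = 0.339 each). Of 8 duct markers, 6 had means below 0, with a median of -0.21 and list levels of 8.68 to 9.04 in IUGR, against 8.73 to 9.47 in control. The keratin gene Krt19 and the chloride channel gene Cftr had means of -0.64 and -1.05 (limma adjusted p = 0.339 each). Of 5 lymphatic endothelial markers, 2 had means below 0 and 3 above 0. The mean level of the list was 9.60 to 9.66 in IUGR, against 9.84 to 10.04 in control. Lyve1, Flt4, Pdpn and Prox1 had means of -0.24, 0.04, 0.03 and 0.02, and for each of them the groups overlapped. The lowest of the 5, the chemokine gene Ccl21, had a mean of -1.61 ± 0.32 (limma adjusted p = 0.339), and its groups alone did not overlap. Ccl21 correlated with Grem1 at r = 0.940 over the 8 samples. Among the markers, Cd3g (r = 0.878), Krt19 (0.876) and Cd3d (0.875) came next.

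Of 11 fibroblast and stellate cell markers tested, 4 had means below 0 and 7 above 0, with a median of 0.13 and list levels of 10.7 to 11.7 in IUGR, against 11.1 to 11.7 in control. Their median by array was 0.16, -0.49, 0.29 and 0.51. Means ran from -0.49 to 0.44, and the highest, Postn, a matrix protein of fibroblasts, had a mean of 0.44 ± 0.33 (limma adjusted p = 0.339). Of 8 endothelial markers 7 had means above 0, with a median of 0.24. The medians of the islet endocrine, lymphatic endothelial, acinar and macrophage lists were 0.18, 0.02, 0.39 and 0.39. By array the islet endocrine median was 0.30, 0.63, -0.40 and -0.45, so its sign changed with the dye. The acinar median was 0.52, 0.11, 1.61 and -0.31. Every marker tested had passed the filter on dim probes, so being above background in some channels is not a result. Gfap of the fibroblast and stellate list and Trat1 of the T cell list were on the arrays but not tested. The part of these cell types in the values of Grem1 and Bmpr2 was not tested.

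**Figure D4:**
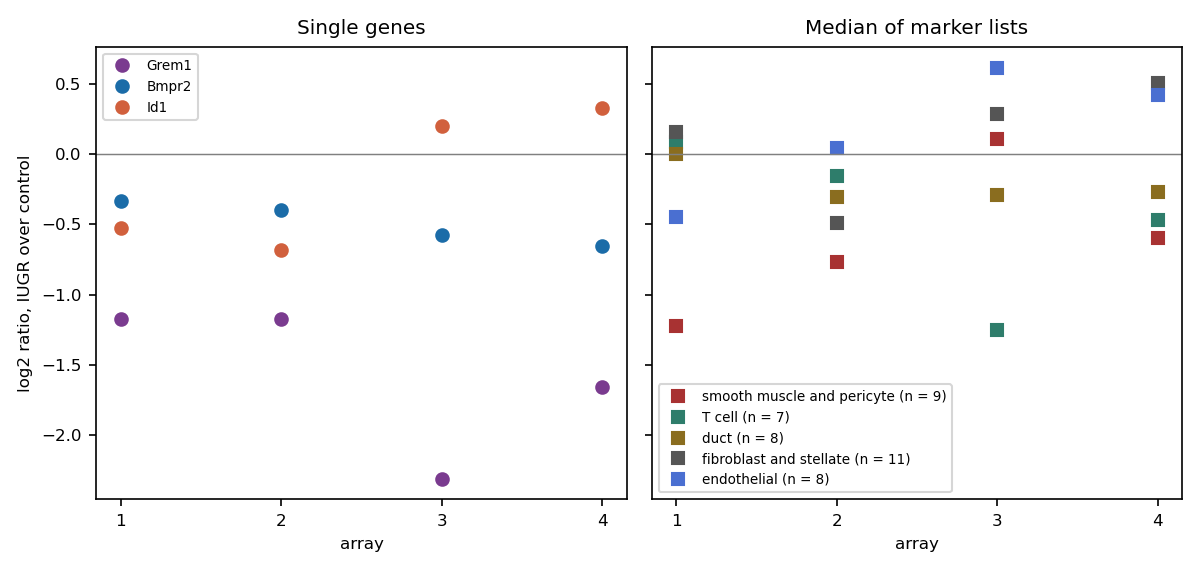
Log2 ratio of IUGR over control (vertical axis) by array (horizontal axis) for Grem1, Bmpr2 and Id1 (left) and for the medians of 5 marker lists (right, n is the number of genes tested). Grem1 runs from -2.31 to -1.17, the smooth muscle median from -1.22 to 0.11 and the T cell median from -1.25 to 0.08. A link between them was not tested.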

How the data were processed

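RNA of 4 IUGR and 4 control islet samples was measured on 4 two-colour arrays. Per the file headers, scanner images were read with Agilent Feature Extraction 10.10.1.1 (protocol GE2_1010_Sep10), and the deposited files give mean signals and median local backgrounds as intensity. They also give log10 ratios of Cy5 over Cy3 from processed signals, per the file headers. A deposited value table of the authors holds log2 ratios of Cy5 over Cy3. Per the submitters' processing notes limma was used, and its settings are not given in the sources used here. The IDs of that table fit the spots' places in the scanner files, where its ratios correlated at 0.986 to 0.998 with loess ratios of uncorrected signals. Its array medians were 0.008, -0.026, -0.013 and -0.028.

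Here, signals were corrected by normexp with an offset of 50 and normalized by loess within each array (R 4.3.3, limma 3.58.1). Control spots (1377) and feature outliers were left out, and 263, 50, 145 and 55 spots with a non-uniform local background were given their array's and channel's median background. Replicate spots were averaged, and the probe of highest mean intensity stood for a gene. Probes well above background in at least 2 of 4 channels of either group were tested, 20012 in all, of which 15109 had a gene name. The model held group and dye, with 2 residual degrees of freedom, and p-values were adjusted by Benjamini-Hochberg over all 20012. Levels per channel came from loess followed by Aquantile, and levels of different probes were not compared. The number of arrays limits the precision. By accession, 59.3% of the 30367 probes matched a RefSeq gene table, used for names only. Probe sequences are those in the scanner files.

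The members and lists were chosen with earlier results of these data known. The narrower of 2 flags for an outlying background was adopted, as in an earlier treatment, after results under both had been seen. Genes were named by a rule, which took all members and the 6 genes most like Grem1. Of the wider list, it took genes with 1 sign on all arrays and the smallest p in their role (up to 2 per direction). It also took such genes of the marker lists the text describes (up to 2). Marker genes of mixed sign, such as Cd3g and Cd3d, were named outside the rule after their values were seen. The arrays cross the sample numbers, and the deviations of same-numbered IUGR and control samples correlated at r = -0.05, -0.29, 0.09 and -0.17. Same-numbered samples differ in array and dye, which were not removed, so these values cannot decide whether the numbers mark pairs. The numbers were not taken as pairs in the main fit. The fits were tested on simulated data. Alternatives covered background, normalization, filter, probe choice, dye, brightness, replicate block and each array left out. The values of 1 gene of the wider list are not reported here.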

Additional observations from a re-analysis of the deposited data

Results flagged for a closer look

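Of 33 sets of 4 values (the ratios, IUGR levels and control levels of 11 probes), 5 held 1 value far from the other 3, where chance gives about 1 in 20. The Bmp2 log2 ratio on array 4 was -0.14, below the other arrays. IUGR replicate 2 had the highest Bmp7 level, 9.27, and IUGR replicate 4 the lowest Nog level, 6.01, which was not well above background. Control replicate 3 had the lowest Bmpr1a level among controls, 9.12. Control replicate 2 had the lowest Id2 level among controls, 9.98.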

How the results depend on the processing

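Grem1 stayed below 0 under all 18 alternatives that gave a value. It was chosen for being below 0 on every array, so its sign could not change in the fits without 1 array. Nor could the sign change without the dye term or with the replicate block. The Grem1 mean was -2.34 with a normexp offset of 0 and -2.78 from Agilent's processed signals. It was -1.09 when outlying local backgrounds were kept as measured. Leaving such spots out after that same background correction gave -1.09 too, so these settings are not independent. In the authors' deposited table the mean was -2.08. Without 1 array the fitted ratio was -1.74 to -1.41. That fit holds a dye term, so its ratio is not the plain mean of the arrays left. With all 8 channels required above background Grem1 was not tested. The replicate block left the Grem1 mean at -1.58 and the calls at 0 (2868 genes at an unadjusted p under 0.05, against 2738), and changed no other call.

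The count of called genes was 0 to 0 without 1 array. Before adjustment, 464 to 6214 genes had p under 0.05 without 1 array. The count of called genes was 15, all 15 lower in IUGR, with median centring, and 7, all 7 lower, with channel brightness as a covariate. A broader flag for outlying backgrounds, added after seeing the data, gave 0 calls and a Grem1 mean of -1.59, and together with the brightness covariate 27 calls, 22 of them lower. No gene of the wider BMP list was called under any of the 19 alternatives, 0 to 0 without 1 array. The median of its fitted ratios was 0.18 with median centring and -0.06 to 0.01 without 1 array. Bmpr2 kept fitted ratios of -0.63 to -0.37 and Id2 of -0.59 to -0.24 under the 19 alternatives, whereas Bmp2, Bmp4 and Bmp7 took either sign. The causes were not tested. With 4 arrays and IUGR signals of Grem1 near background, its fold is imprecise.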
